A study of Mus musculus with 17 samples.

Results

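Liver mRNA of 9 genes of amino acid breakdown was followed through acetaminophen injury: Tat, Gpt, Gpt2, Got1, Prodh, Ddc, Hal, Sds and Hpd. They were chosen by symbol, as enzymes that move amino groups or open the breakdown of single amino acids, and all 9 were found among the 46073 genes listed. All 9 also passed the filter on low values, as did 11101 genes in all. The data are 17 liver libraries of male C57BL/6 mice (an inbred laboratory strain) aged 11 to 12 weeks and killed 24 h after acetaminophen (APAP) or saline. Genotype labels at Nampt, which encodes the enzyme that starts NAD salvage from nicotinamide, were +/+ (WT below), +/- (Het below) and OE, an abbreviation the labels leave without its full form. The saline groups held 3 WT, 2 Het and 2 OE livers. The APAP groups, at 200 mg/kg, held 3 livers each of WT and Het mice and 2 of OE mice. A WT mouse with saline labelled IG and an OE mouse with APAP at 300 mg/kg stood alone in their groups. Numbers after a group name only tell its libraries apart. The labels do not say how the OE line was made, which cells carry the change, or whether the mice of a group were littermates.

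The liver is the main site of amino acid breakdown. Transaminases pass the amino group of an amino acid to 2-oxoglutarate with the help of vitamin B6, and the carbon skeletons then feed glucose production or the citric acid cycle, while the nitrogen goes to urea. Many of these enzymes are made in hepatocytes near the portal vein and respond to fasting hormones, and alanine and aspartate transaminase that leak into blood are the clinical readouts of liver injury. APAP at high dose injures hepatocytes near the central vein, where cytochrome P450 enzymes turn it into a reactive product.

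Values are FPKM, a level per transcript length and per fragments sequenced in the library, so levels can be set side by side between genes. A gene was called changed where limma's adjusted p was under 0.05, and differences are log2 of (FPKM + 1) ± standard error. In a liver homogenate, fewer cells of a type and less RNA per cell cannot be told apart. Whether each library of a group is a different animal is not spelled out, so a p-value here sets a difference against library-to-library scatter that could be technical.

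Several facts of the libraries bear on every comparison. Among saline livers, 2 of 3 WT, 2 of 2 Het and 1 of 2 OE were perfused, and among APAP livers 0 of 3 WT, 1 of 3 Het and 1 of 2 OE. Perfusion followed the sequencing lane, and WT APAP and WT saline shared no lane, so the WT response and the lane cannot be told apart. Nampt mRNA was 15.3 to 18.0 FPKM in WT saline, 23.0 to 26.0 in Het saline and 22.4 to 27.2 in OE saline livers, so it was not lower in the libraries labelled Het. After APAP it was 10.9 to 16.7 FPKM in WT, 11.3 to 15.4 in Het and 18.5 and 36.0 in OE livers, and WT, Het and OE below mean libraries labelled so. The library OE APAP 1 stood apart from OE APAP 2. Its Lcn2, an acute-phase gene, was 8.57 FPKM against 725 FPKM in OE APAP 2, and saline libraries ranged from 2.50 to 19.1 FPKM. The 2 OE saline livers also stood apart, and they held the ends of that range, 19.1 in OE saline 1 and 2.50 in OE saline 2. Glul and Cyp2e1, markers of hepatocytes near the central vein, were 101.5 and 734 FPKM in OE saline 1. In OE saline 2 they were 313 and 3831 FPKM. Every OE response rests on these 2 livers as saline controls. The summed level of 10 hepatocyte markers was 34120 to 34930 FPKM in WT saline, 33940 to 35080 in Het saline and 27170 to 35660 in OE saline. After APAP it was 15800 to 24270 in WT, 13490 to 18140 in Het and 23500 to 27350 in OE livers, so only the OE ranges overlapped. The summed level of 10 monocyte and macrophage markers was 32.5 to 36.7 FPKM in WT saline, 40.9 to 217 in WT APAP, 178 to 291 in Het APAP and 29.1 to 79.9 in OE APAP, and 7 of the 8 tested rose in the averaged response. Of 8 neutrophil markers 4 were tested and 3 rose. Ly6g and Mpo, which were not tested, were at 0 in every WT and Het saline library. In OE saline only Ly6g was at 0 in both livers. For scale, 9.79% of all genes rose in the averaged response. Skeletal muscle markers summed to at most 0.292 FPKM in any library. Their part in the results below was not tested.

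Averaged over the 3 labels, 6 of the 9 mRNAs fell after APAP: Prodh, Hpd, Gpt, Hal, Gpt2 and Ddc. No member rose. Of all genes tested 23.1% were called, 13.3% lower and 9.79% higher. The differences were -1.93 ± 0.19 for Prodh, -1.505 ± 0.31 for Hpd and -1.18 ± 0.18 for Gpt, with limma adjusted p of 0.000139, 0.00502 and 0.00109. Tat, Got1 and Sds were not called, with averaged differences of 0.12 ± 0.19, 0.03 ± 0.24 and 0.65 ± 0.36 and adjusted p of 0.692, 0.945 and 0.224. The median of all genes tested was -0.02. By mean level over the 17 libraries the order was Hpd (788 FPKM), Tat (586), Gpt2 (131), Hal (110), Gpt (106), Sds (102), Got1 (101), Prodh (41.6) and Ddc (25.3). The ranges of neighbours in this order overlapped at every step.

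**Figure D1:**
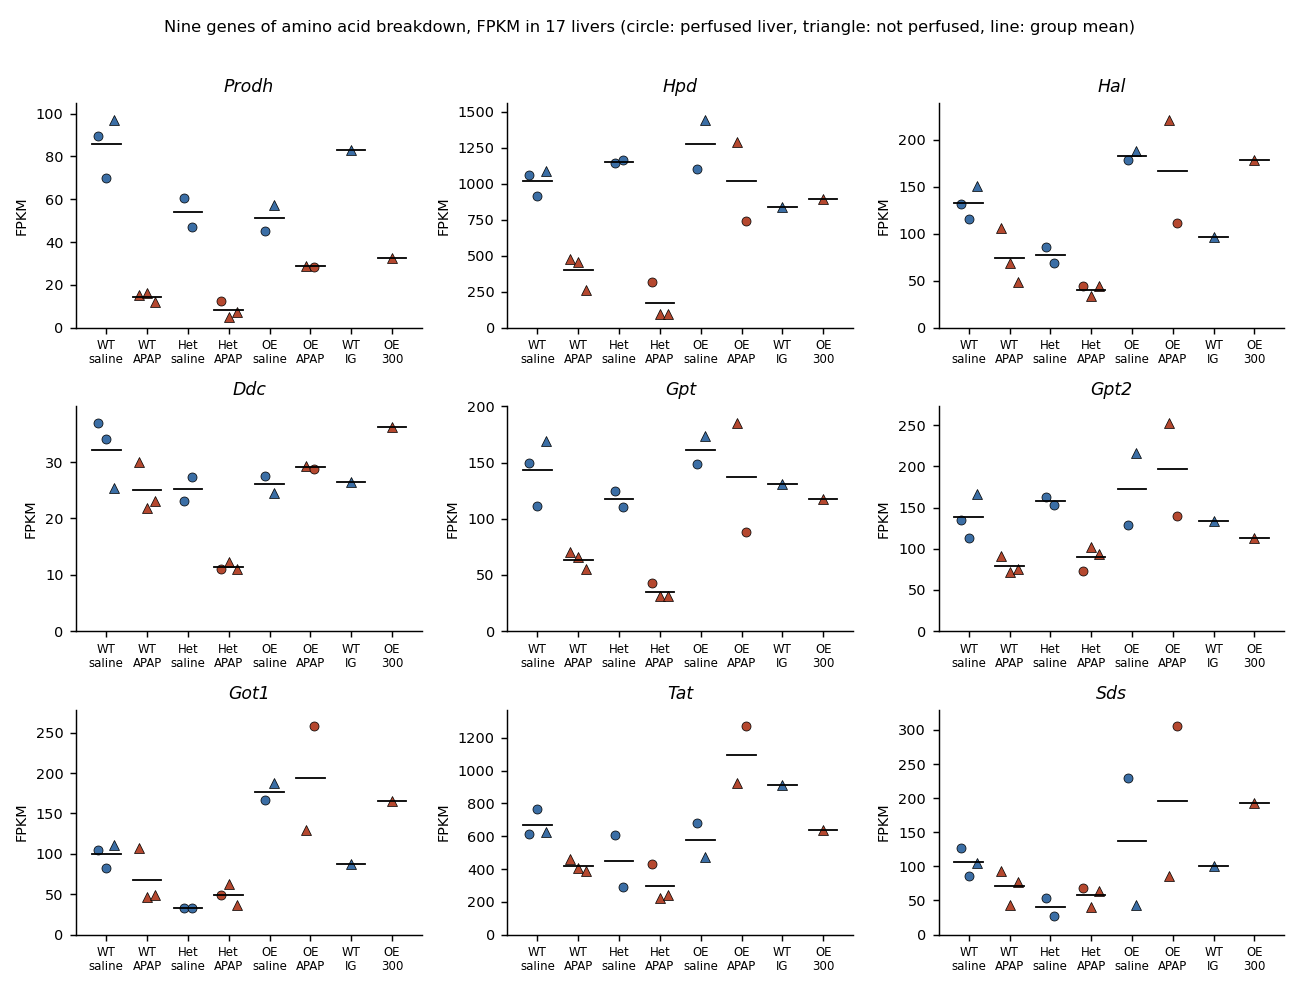
FPKM (linear axes from 0) of the 9 genes in each of 17 livers by group, with circles for perfused and triangles for non-perfused livers, blue for saline, red for APAP and lines for group means. Prodh lies lower in every 200 mg/kg library (4.82 to 29.0 FPKM) than in every saline library (45.0 to 97.2 FPKM). For all 9 genes the Het APAP points lie below the OE APAP points, as they do for 23.3% of all genes tested.

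Prodh, the mitochondrial enzyme that opens proline breakdown (ENSMUSG00000003526, chr16:18060357-18090203 of GRCm38, minus strand), fell in WT and Het livers. It stood at 89.6, 70.1 and 97.2 FPKM in WT saline and at 15.2, 16.0 and 12.2 FPKM in WT APAP livers. Het saline livers held 60.6 and 47.0 FPKM and Het APAP livers 12.3, 4.82 and 7.39 FPKM. OE saline livers held 45.0 and 57.1 FPKM and OE APAP livers 29.0 and 28.2 FPKM. Every APAP library lay below every saline library of its label, and Prodh was the only member for which all 8 libraries at 200 mg/kg lay below all 7 of the matching saline groups, a pattern seen in 2.41% of all genes. The mean after APAP was 16.9% of the saline mean in WT, 15.2% in Het and 56.0% in OE. The difference was -2.41 ± 0.29 in WT and -2.58 ± 0.31 in Het livers (limma adjusted p = 0.00211 and 0.000715), and the OE difference of -0.80 ± 0.31 did not pass (adjusted p = 0.932). The gene shares 11276 bases with Dgcr6 on the other strand, which stood at 11.4 to 26.1 FPKM in these groups and had an averaged difference of -0.32 ± 0.14 (adjusted p = 0.105).

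Hpd, which turns 4-hydroxyphenylpyruvate into homogentisate in tyrosine breakdown (ENSMUSG00000029445, chr5:123171807-123182727, minus strand), was the most abundant of the 9, with a mean of 788 FPKM over the 17 libraries. WT livers held 1062, 917 and 1088 FPKM under saline and 477, 457 and 266 FPKM after APAP. Het livers held 1145 and 1166 FPKM under saline and 315, 95.98 and 94.7 FPKM after APAP. The OE livers held 1106 and 1447 FPKM under saline and 1290 and 745 FPKM after APAP, so the groups overlapped there and did not in WT and Het. The Het difference was -2.88 ± 0.51 (adjusted p = 0.00312), a mean of 14.6% of saline. The WT difference of -1.26 ± 0.47 did not pass (adjusted p = 0.132), although it was called without Het APAP 1 (-1.67, adjusted p = 0.00752) and without the perfusion term (-1.40, 0.0445). The averaged call was lost without OE APAP 2 (-1.18, adjusted p = 0.0602). Hpd lies within Psmd9, which is read from the other strand, stood at 8.39 to 22.2 FPKM in these groups and fell by 0.53 ± 0.15 on average, and how the counting used strand is not given in the sources used here.

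Gpt, the cytosolic alanine transaminase (ENSMUSG00000022546, chr15:76695716-76699686, plus strand), which interconverts alanine and pyruvate, was lower after APAP in WT and Het livers. It stood at 149, 111 and 169 FPKM in WT saline and 70.2, 65.9 and 54.9 FPKM in WT APAP livers. Het saline livers held 125 and 110 FPKM and Het APAP livers 42.7, 31.3 and 31.3 FPKM. In OE livers the values were 149 and 174 FPKM under saline and 185 and 88.6 FPKM after APAP, which overlap, and OE APAP 1 was the highest of the 17 libraries. The difference was -1.32 ± 0.27 in WT (adjusted p = 0.0185) and -1.90 ± 0.30 in Het livers (adjusted p = 0.00178). The WT call was lost without WT saline 1 (adjusted p = 0.0557), WT saline 3 (0.109) or WT APAP 3 (0.0598), and also with no filter on low values (0.0686), after quantile normalisation (0.0537) and from the WT libraries alone (0.0990).

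Gpt2, the mitochondrial alanine transaminase (ENSMUSG00000031700, chr8:85492576-85527560, plus strand), stood at 135, 113 and 167 FPKM in WT saline and 91.6, 71.5 and 75.3 FPKM in WT APAP livers. Het livers held 163 and 153 FPKM under saline and 72.6, 102 and 93.3 FPKM after APAP. OE livers held 129 and 216 FPKM under saline and 253 and 140 FPKM after APAP. The mean after APAP was 57.5% of saline in WT, 56.7% in Het and 114% in OE livers. The difference was -1.17 ± 0.18 in WT (adjusted p = 0.00748), -1.21 ± 0.20 in Het (adjusted p = 0.00205) and 0.17 ± 0.19 in OE livers. Without the perfusion term both calls were lost, at -0.78 in WT (adjusted p = 0.0651) and -0.83 in Het livers (0.0504), and the WT call was lost from the WT libraries alone (-1.07, 0.112). The ratio of Gpt to Gpt2 was 1.10, 0.985 and 1.02 in WT saline, 0.766, 0.921 and 0.729 in WT APAP, 0.766 and 0.720 in Het saline, and 0.588, 0.306 and 0.335 in Het APAP livers. Het APAP livers therefore held the lowest ratios of the 17 libraries. OE livers had ratios of 1.15 and 0.804 under saline and 0.733 and 0.633 after APAP.

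**Figure D2:**
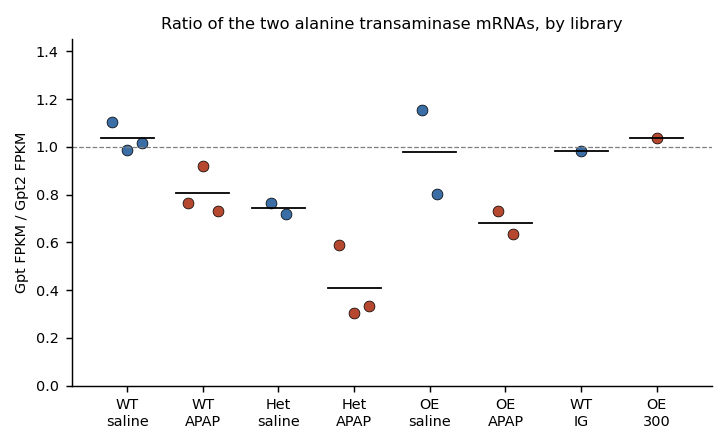
Ratio of Gpt to Gpt2 FPKM (linear axis from 0) in each of 17 livers by group, with lines for group means and a dashed line at equal levels. The 3 Het APAP livers lie at 0.306 to 0.588, below every other library, and the WT saline livers at 0.985 to 1.10.

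Hal, which opens histidine breakdown by releasing ammonia (ENSMUSG00000020017, chr10:93488768-93519304, plus strand), is a marker of periportal hepatocytes. It stood at 132, 116 and 151 FPKM in WT saline and 106, 68.6 and 48.8 FPKM in WT APAP livers. Het livers held 86.3 and 68.9 FPKM under saline and 44.0, 33.4 and 43.9 FPKM after APAP. The OE values were 179 and 188 FPKM under saline and 222 and 111 FPKM after APAP. WT and Het groups did not overlap and OE groups did. The averaged difference was -0.79 ± 0.20 (adjusted p = 0.0161), and it was lost without WT saline 3 (adjusted p = 0.05), OE saline 2 (0.0538) or OE APAP 2 (0.165), with no filter on low values (0.0606) and after quantile normalisation (0.0832). The Het difference of -1.09 ± 0.34 (adjusted p = 0.0391) was kept without WT APAP 1, WT APAP 3 or Het APAP 1 and lost without any of the other 12 libraries, with adjusted p up to 0.200. It was also lost with lane in place of perfusion (-0.80, adjusted p = 0.274), with no filter on low values (0.108), after quantile normalisation (0.136) and from the Het libraries alone (0.129), so 10 of 27 alternatives kept it. The WT difference of -1.06 ± 0.31 did not pass (adjusted p = 0.0685) but was called without WT APAP 1 (0.0235) or Het APAP 1 (0.0412).

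Ddc, the aromatic amino acid decarboxylase that makes dopamine and serotonin in other tissues (ENSMUSG00000020182, chr11:11814101-11898144, minus strand), was the least abundant, with a mean of 25.3 FPKM over the 17 libraries. WT livers held 36.9, 34.1 and 25.5 FPKM under saline and 30.1, 21.9 and 23.1 FPKM after APAP, which overlap. Het livers held 23.0 and 27.4 FPKM under saline and 11.0, 12.3 and 11.1 FPKM after APAP. OE livers held 27.6 and 24.5 FPKM under saline and 29.4 and 28.7 FPKM after APAP, slightly above. The Het difference was -0.98 ± 0.19 (adjusted p = 0.00495), and it was lost without Het saline 2 (adjusted p = 0.0532). The averaged difference of -0.36 ± 0.12 (adjusted p = 0.0410) was kept without WT saline 3, WT APAP 1, Het APAP 2 or OE APAP 1 and lost without any of the other 11 libraries, with adjusted p up to 0.228, and 10 of all 26 alternatives kept it.

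Tat, the transaminase that commits tyrosine to breakdown and a textbook target of glucocorticoids (ENSMUSG00000001670, chr8:109990437-109999803, plus strand), lay on opposite sides of saline in different labels, with no response called. WT livers held 613, 765 and 624 FPKM under saline and 461, 409 and 389 FPKM after APAP. Het livers held 610 and 293 FPKM under saline and 430, 224 and 240 FPKM after APAP. OE livers held 681 and 475 FPKM under saline and 923 and 1271 FPKM after APAP. All WT APAP values lay below WT saline, the Het groups overlapped, and both OE APAP values lay above OE saline. None of these passed: the differences were -0.33 ± 0.29 in WT, -0.23 ± 0.32 in Het and 0.93 ± 0.32 in OE livers, with adjusted p of 0.554, 0.645 and 0.932. Tat and Hpd catalyse consecutive steps, and their averaged differences were 0.12 and -1.505.

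Got1, the cytosolic aspartate transaminase of the malate-aspartate shuttle (ENSMUSG00000025190, chr19:43499752-43524605, minus strand), was not called in any response to APAP. Its values were 105, 82.6 and 111 FPKM in WT saline and 108, 46.6 and 48.8 FPKM in WT APAP livers. Het saline livers held 32.5 and 33.4 FPKM and Het APAP livers 48.9, 62.0 and 36.8 FPKM, all 3 above saline. OE saline livers held 167 and 187 FPKM and OE APAP livers 130 and 258 FPKM. The Het difference of 0.61 ± 0.41 did not pass (adjusted p = 0.314), nor did the WT one of -0.57 ± 0.37 (0.402) or the OE one of 0.05 ± 0.40 (1).

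Sds, which turns serine into pyruvate and ammonia (ENSMUSG00000029597, chr5:120476526-120483932, plus strand), varied widely between libraries of a group. WT livers held 126, 86.1 and 105 FPKM under saline and 92.7, 43.5 and 77.1 FPKM after APAP. Het livers held 54.2 and 26.9 FPKM under saline and 67.9, 39.9 and 64.2 FPKM after APAP. OE livers held 229 and 43.8 FPKM under saline and 85.9 and 305 FPKM after APAP. Saline and APAP groups overlapped in every label and no response passed, with differences of 0.06 ± 0.55, 1.21 ± 0.60 and 0.68 ± 0.60 in WT, Het and OE livers. The 95% intervals ran from -1.16 to 1.27 in WT and from -0.12 to 2.54 in Het livers, so a sizeable change was not excluded in these groups.

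The single libraries are given as values. The WT liver with saline labelled IG held 910 FPKM of Tat, 131 of Gpt, 133 of Gpt2, 87.2 of Got1, 82.8 of Prodh, 26.5 of Ddc, 96.4 of Hal, 100.4 of Sds and 841 of Hpd. The OE liver with 300 mg/kg held 638 FPKM of Tat, 118 of Gpt, 114 of Gpt2, 165 of Got1, 32.8 of Prodh, 36.1 of Ddc, 178 of Hal, 193 of Sds and 892 of Hpd. Its Prodh was below both OE saline livers and its Ddc above both.

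By label, the count of called members was 3 of 9 lower in WT (Gpt, Gpt2 and Prodh, against 3.55% of all genes lower and 1.95% higher), 6 of 9 lower in Het (Gpt, Gpt2, Prodh, Ddc, Hal and Hpd, against 13.1% lower and 9.04% higher) and 0 of 9 in OE (against 0% of all genes by limma, with 533 genes and 2 members, Tat and Prodh, at an unadjusted p under 0.05). Members whose APAP and saline groups did not overlap numbered 6 lower in WT (21.7% of all genes), 6 lower and 1 higher in Het (33.2% and 25.4%), and 1 lower and 2 higher in OE (10.6% and 10.8%). A call in one label and none in another does not show that they differ. The differences of response were tested directly, and 0 of 9 members were called in any of the 3 contrasts between labels (0.018% of all genes called). At an unadjusted p under 0.05 there were 6 members and 2035 genes in the OE minus Het contrast, 4 members and 664 genes in OE minus WT, and 3 members and 916 genes in Het minus WT. The smallest adjusted p was 0.0838, for Gpt2, whose response was 1.38 ± 0.28 higher in OE than in Het livers (95% interval 0.78 to 1.98). Single libraries changed this count: Gpt2 was called without WT APAP 3, Gpt, Gpt2, Prodh and Hpd without Het APAP 1, and Gpt and Gpt2 without OE APAP 2. Calls over all genes rose in the same settings, from 2 to 95, 458 and 258 genes.

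**Figure D3:**
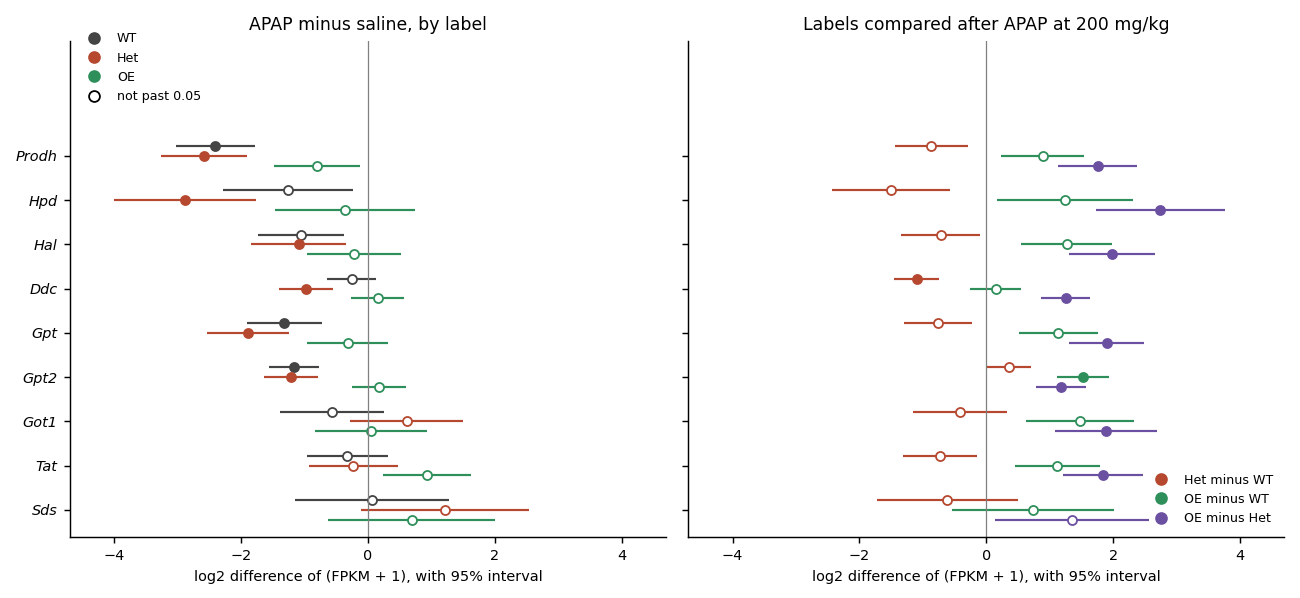
Log2 differences of (FPKM + 1) with 95% intervals for APAP minus saline in each label (left) and for labels compared after 200 mg/kg APAP (right), with filled points for adjusted p under 0.05. On the left Prodh, Gpt and Gpt2 are filled in WT and Het, and Hpd, Ddc and Hal in Het only. Of all genes 3.55% were called lower in WT and 13.1% in Het. No member is filled in OE, where 0% of all genes were called. On the right 8 of 9 OE minus Het differences are filled, from 1.18 to 2.74 (8.72% of all genes higher). Ddc is filled in Het minus WT (0.045% lower) and Gpt2 in OE minus WT (0.00901% higher).

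After APAP the comparison of OE with Het livers called more members than the other label comparisons. In OE livers 8 of 9 mRNAs were higher than in Het livers (8.72% of all genes higher and 4.9% lower), and all 9 had both OE values above all 3 Het values, as did 23.3% of genes. Hpd differed most, by 2.74 ± 0.47 (adjusted p = 0.00624), then Hal by 1.99 ± 0.31 (0.00505), Gpt by 1.90 ± 0.27 (0.00471), Got1 by 1.89 ± 0.37 (0.0107) and Tat by 1.84 ± 0.29 (0.00505). Prodh differed by 1.76 ± 0.29 (0.00505), Ddc by 1.25 ± 0.18 (0.00471) and Gpt2 by 1.18 ± 0.18 (0.00489). The Sds difference of 1.35 ± 0.55 did not pass (adjusted p = 0.124). Under saline, where no member was called, OE minus Het was 2.45 ± 0.43 for Got1 and 1.88 ± 0.63 for Sds, both larger than after APAP. It was 1.11 ± 0.36 for Hal and 0.68 ± 0.33 for Tat, and from -0.21 (Gpt2) to 0.32 (Gpt) for the other members. The differences after APAP therefore need not all have arisen after APAP. Without OE APAP 1, which leaves 1 OE library whose spread is taken from the other groups, 0 of 9 were called, with differences of 0.995 to 2.48 and adjusted p of 0.114 to 0.342. The differences kept their sign, Tat going from 1.84 to 1.81, Got1 from 1.89 to 2.48 and Gpt from 1.90 to 1.36, so the calls and not the direction changed without that library. They were also lost with lane in place of perfusion (0 of 9, differences of 0.97 to 2.29), and from the OE and Het APAP libraries alone 1 was called, Ddc. Without OE APAP 2, again with 1 OE library, the Got1 call was lost (1.37, adjusted p = 0.0572). Within lane L008, where OE APAP 2 and Het APAP 1 were both perfused, the differences were 0.94 to 2.37. Lcn2 was 850, 2034 and 1002 FPKM in the Het APAP livers, against 8.57 and 725 FPKM in the OE ones, and its part was not tested.

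Between the other labels after APAP, single members passed. Of all genes 13.6% passed in any of the 3 contrasts, a share that includes OE minus Het (8.72% higher and 4.9% lower). Ddc was lower in Het than in WT livers, with a difference of -1.10 ± 0.16 (adjusted p = 0.0319, 0.045% of genes lower). That call was kept without WT saline 3, WT APAP 3, Het APAP 1, OE APAP 1 or OE APAP 2 and lost without any of the other 10 libraries, with adjusted p up to 0.155, and also without the perfusion term (0.0932) and from only the groups compared (0.125), so 15 of 27 alternatives kept it. Without Het APAP 1 Gpt (-0.995, adjusted p = 0.0278), Prodh (-1.14, 0.0190) and Hpd (-2.01, 0.00900) were called lower in Het as well. The same members were called with lane in place of perfusion (adjusted p of 0.0268, 0.0201 and 0.00798) and with array weights (0.0144, 0.0156 and 0.00689). Hpd was also called without WT APAP 3 (-1.77, 0.0408). Gpt, Prodh and Hpd were thus called in 3, 3 and 4 of 27 alternatives. Gpt2 was higher in OE than in WT livers by 1.53 ± 0.19 (adjusted p = 0.0296, 0.00901% of genes higher). That call was kept without WT saline 3, WT APAP 1, Het APAP 1, Het APAP 2 or OE APAP 2 and lost without any of the other 10, with adjusted p up to 0.477. It was also lost without the perfusion term (0.147), with lane in its place (0.450), with single libraries pooled (0.0587), after quantile normalisation (0.0830), with array weights (0.0878) and from only the groups compared (0.158), so 10 of 27 alternatives kept it. Gpt was called higher in OE without OE APAP 2 (1.53, 0.0362), and Got1 without WT APAP 1 (1.86, 0.0458). All Het values lay below all WT values for Gpt, Ddc and Hal (11.4% of genes), and all OE values above all WT values for 7 members, Ddc and Sds aside (16.1% of genes).

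Under saline 0 of 9 members were called between labels (0.045% of all genes in any contrast), with 5 members and 1314 genes at an unadjusted p under 0.05 in Het minus WT, 2 and 661 in OE minus WT, and 3 and 591 in OE minus Het. Got1 stood at 32.5 and 33.4 FPKM in Het, 82.6 to 111 in WT and 167 and 187 in OE livers. Its OE minus Het difference was 2.45 ± 0.43 (adjusted p = 0.257, 95% interval 1.52 to 3.37). The Sds difference between Het and WT livers was -1.77 ± 0.56 (adjusted p = 0.290). Values of Het lay below WT without overlap for Tat, Got1, Prodh, Hal and Sds (19.1% of genes) and above for Hpd (20.3%). Those of OE lay below WT for Prodh (11.9%) and above for Got1, Hal and Hpd (8.83%), and those of Het below OE for Gpt, Got1 and Hal (13.7%).

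Promoter sequence was read for the members that fell together and for those that did not. The RefSeq table (GRCm38.p6) held 7 of the 9, without Gpt and Sds. The 250 bases before the start of Gpt2 and the 246 of Hpd, which fell in Het livers, are shown beside those of Tat and Got1, which were not called in any response. Capitals mark each CCAAT box (CCAAT, or ATTGG where it lies on the other strand), and the intervals are chr8:85492326-85492575 (plus strand), chr5:123182728-123182973 (minus strand), chr8:109990186-109990435 (plus strand) and chr19:43524606-43524855 (minus strand) in that order.
Gpt2: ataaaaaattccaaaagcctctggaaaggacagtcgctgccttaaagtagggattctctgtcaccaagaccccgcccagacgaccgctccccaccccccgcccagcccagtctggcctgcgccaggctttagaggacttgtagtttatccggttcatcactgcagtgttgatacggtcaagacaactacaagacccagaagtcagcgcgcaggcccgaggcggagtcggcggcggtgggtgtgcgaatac
Hpd: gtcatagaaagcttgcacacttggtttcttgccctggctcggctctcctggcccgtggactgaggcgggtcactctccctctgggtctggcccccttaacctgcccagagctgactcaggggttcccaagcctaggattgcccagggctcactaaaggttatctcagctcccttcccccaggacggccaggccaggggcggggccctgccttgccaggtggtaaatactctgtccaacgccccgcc
Tat: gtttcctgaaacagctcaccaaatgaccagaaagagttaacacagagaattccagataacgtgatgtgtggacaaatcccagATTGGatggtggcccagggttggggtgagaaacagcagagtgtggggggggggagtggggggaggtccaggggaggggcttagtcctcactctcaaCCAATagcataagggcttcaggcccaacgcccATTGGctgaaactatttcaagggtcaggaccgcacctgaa
Got1: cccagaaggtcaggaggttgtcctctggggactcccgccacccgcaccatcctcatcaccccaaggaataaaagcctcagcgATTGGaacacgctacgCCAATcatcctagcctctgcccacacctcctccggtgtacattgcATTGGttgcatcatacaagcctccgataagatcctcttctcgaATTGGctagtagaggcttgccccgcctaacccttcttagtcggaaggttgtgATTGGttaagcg
The Tat window held 3 CCAAT boxes and the Got1 window 5, while the Gpt2, Hpd and Prodh windows held 0. The Prodh window lies inside the annotated gene and covers 102 bases of a Prodh exon. Hal and Ddc, which also fell in Het livers, did hold a CCAAT box, 64 and 55 bases before the start. That of Ddc was in only 1 of its 2 windows. The box therefore did not separate members that fell from those not called. Searched on both strands, CCAAT was found in 33.8% of 32851 promoter windows of the table and in 4 of the 7 members (Tat, Got1, Ddc and Hal), and the TATA box TATAAA in 12.4% and in 2 (Ddc and Hal). The percentages count windows, while a member was counted if any of its windows matched, so Ddc with 2 windows had more room for a match. The glucocorticoid receptor core site AGAACA (16.1% of windows), the cyclic AMP response core TGACG (17.8%), the HNF1 core site GTTAAT (6.43%), the C/EBP palindrome TTGCGCAA (0.164%), the HNF4A-type site CAAAGTCCA (0.384%) and the C/EBP-ATF element TGATGNAAT (0.816%) were in 0 of the 7. No 2 matches in a member overlapped, and a match describes these letters only. An absence holds for these windows only, since sites farther from the start were not searched.

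The wider breakdown pathways were followed in gene lists chosen by function. Outside the 9, 74 genes of these pathways were tested, of which 49 fell, 2 rose and 23 were not called in the averaged response. Of all genes 13.3% fell and 9.79% rose. The median was -0.62, against -0.02 for all genes and -0.56 for the 10 hepatocyte markers, of which 6 fell and 1 rose. A fall near this size was therefore not particular to the breakdown genes. In WT livers 20 fell and 1 rose (3.55% and 1.95% of all genes), in Het livers 49 fell and 2 rose (13.1% and 9.04%), and in OE livers 0 passed (0%). Psat1, which makes serine from a glycolytic intermediate, rose by 2.32 ± 0.14, from 0.281 to 0.927 FPKM in WT saline to 6.03 to 7.78 FPKM in WT APAP livers. Acmsd, which steers tryptophan carbon away from NAD synthesis, rose by 1.28 ± 0.28. These 2 were named as the genes of the breakdown lists that rose, after their values were seen.

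**Figure D4:**
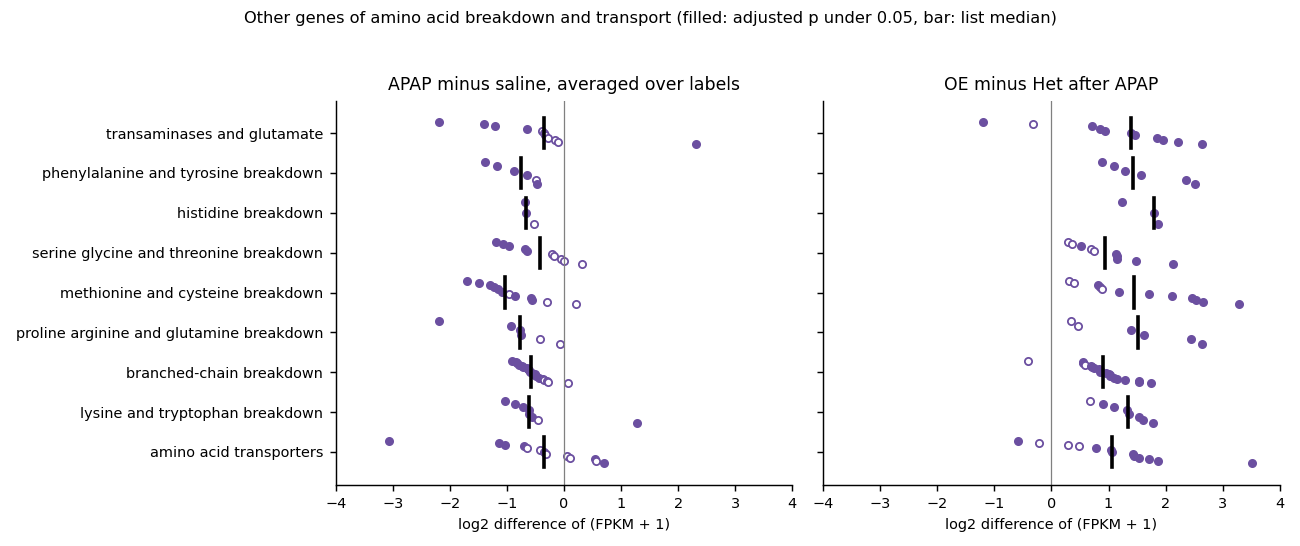
Log2 differences of (FPKM + 1) for the other genes of each list, as the averaged APAP response (left) and as OE minus Het after APAP (right), with filled points for adjusted p under 0.05 and bars for list medians. Most points lie left of 0 on the left side and right of 0 on the right side, and Psat1 (2.32 and -1.20) lies opposite on both.

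Of the other transaminase and glutamate genes 4 of 11 fell and 1 rose, while of all genes 13.3% fell and 9.79% rose. Oat, the ornithine transaminase of cells near the central vein, fell by 2.19 ± 0.32 on average, from 306 to 414 FPKM in WT saline to 68.3 to 116 FPKM in WT APAP livers, and Aadat, which acts on lysine and kynurenine intermediates, fell by 1.40 ± 0.21. Of the phenylalanine and tyrosine genes 5 of 6 fell. Hgd, the step after Hpd, fell by 1.18 ± 0.22, beside 0.12 ± 0.19 for Tat, the step before Hpd. Of the histidine genes 2 of 3 fell, Ftcd (-0.68 ± 0.17) and Uroc1 (-0.66 ± 0.18), and Amdhd1 had a difference of -0.53 ± 0.20 (adjusted p = 0.0792).

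Of the methionine and cysteine genes 9 of 12 fell, with a median of -1.03, while 13.3% of all genes fell. Bhmt, which remakes methionine from homocysteine, fell by 1.70 ± 0.22, and so did Ahcy, which splits S-adenosylhomocysteine (-1.30 ± 0.20), and Mpst, a sulfur transferase (-0.85 ± 0.13). Of the proline, arginine and glutamine genes 4 of 6 fell, among them Prodh2, which oxidises hydroxyproline (-0.93 ± 0.15). Branched-chain genes fell in 15 of 20 cases with a median of -0.58, among them Auh (-0.78 ± 0.10) and Mcee (-0.65 ± 0.09). Serine, glycine and threonine genes fell in 5 of 10 cases, among them Shmt1 (-1.19 ± 0.21) and Sardh (-1.06 ± 0.20). Lysine and tryptophan genes fell in 6 of 8 cases, among them Gcdh (-1.03 ± 0.18) and Tdo2, the first step of tryptophan breakdown (-0.73 ± 0.15). Of the vitamin B6 genes only Pdxk, which activates the vitamin, fell (-0.51 ± 0.13), 1 of 3 tested.

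Amino acid transporters went both ways, with 5 of 13 lower and 2 higher (13.3% and 9.79% of all genes). Slc1a2, a glutamate importer of pericentral hepatocytes, fell by 3.06 ± 0.40, from 31.3 to 36.7 FPKM in WT saline to 0.957 to 8.72 FPKM in WT APAP livers. Slc25a13, the mitochondrial aspartate-glutamate carrier, fell by 1.14 ± 0.13, and Slc1a4, a carrier of alanine, serine and cysteine, rose by 0.70 ± 0.12. Of 9 pericentral markers 7 fell, among them Glul (-3.39 ± 0.25) and Cyp2e1 (-2.56 ± 0.49), and of 10 periportal markers, a list that holds Hal and Sds, 3 fell and 1 rose. Cyp2f2 fell by 1.10 ± 0.17 and Pck1 had a difference of 0.88 ± 0.37 (adjusted p = 0.109).

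After APAP, 58 of the 74 breakdown genes were higher in OE than in Het livers and 1 was lower, Psat1 (-1.20 ± 0.21). Of all genes 8.72% were higher and 4.9% lower. The median was 1.14, against 0.05 for all genes and 0.63 for the 10 hepatocyte markers, of which 3 were higher. All 6 phenylalanine and tyrosine genes and all 3 histidine genes were among the 58, among them Hgd with a difference of 2.36 ± 0.34. These counts come from the same OE and Het APAP libraries as the members' values, and without OE APAP 1 the 3 comparisons of labels after APAP called 16 genes of all tested, against 1513 with it.

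Likeness over the 17 libraries was described by Pearson's r of log2(FPKM + 1) among 6067 genes whose mean reached 5 FPKM, with no p, since the points share library, group and depth. Hpd was most like Hgd (0.985), the enzyme that follows it. Hal was like Kcnn2 (0.949), Amdhd1 (0.946), a later step of histidine breakdown, and Gls2 (0.943), the glutaminase of periportal cells, and Got1 was also most like Gls2 (0.836). Ddc was most like Kynu (0.930), Gpt like Isoc2a and Acad10 (both 0.981) and Sardh (0.980), Gpt2 like Cnn3 (0.915) and Ahcy (0.914), among others, Prodh like Ghr (0.977) and Tat like Klf15 (0.879). Sds was most like Plbd2 (0.930), with which it shares 651 bases on the other strand, so reads of the 2 may be hard to tell apart. Among the 9, Gpt and Hpd were the most alike (0.959), followed by Gpt and Hal (0.901) and Gpt and Prodh (0.897). Gpt2 and Sds were the least alike (0.065).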

How the data were processed

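RNA of 17 mouse livers was sequenced from both ends with a stranded total RNA kit, per the labels' protocols. The submitters' processing notes name bcl2fastq 2.17.1.14, TopHat2 2.0.9, Cufflinks 2.2.1, Cuffdiff and GRCm38 p5. The deposited values are read as FPKM made by the authors, inferred from these tools and the values, since no header names the unit. Absolute depth is unknown. The worth of 1 fragment, from low genes, was 0.302 to 3.38 times that in WT saline 1, and Het APAP 2 was the deepest library by this measure and the 300 mg/kg library the shallowest. No library was a duplicate: the median absolute log2 difference was at least 0.135 for every pair.

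The filter kept 11101 genes whose mean reached 1 FPKM, and 96 genes listed at 0 throughout a block of libraries although their mean elsewhere reached 10 FPKM, or lying within 100 kb of such a gene with the same zeros, were left out as failed estimates. limma 3.58.1 (statmod 1.5.0, R 4.3.3) fitted log2(FPKM + 1), which understates changes of low genes, with 8 group means and a perfusion term (8 residual degrees of freedom), a trended and robust prior, and Benjamini-Hochberg adjustment over all genes. The code was tested on simulated data. Coordinates are GENCODE on GRCm38. The members, gene lists, tests and naming rule (the 9 members, the 3 genes of each list with the smallest p, and the 3 genes most like each member) were chosen with earlier results of these data known. A few genes that the naming rule selects are not reported here.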

Additional observations from a re-analysis of the deposited data

Results flagged for a closer look

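For Tat the direction of the APAP difference was opposite in WT and OE livers: all 3 WT APAP values lay below all WT saline values and both OE APAP values lay above both OE saline values. The OE response exceeded the WT response by 1.26 (95% interval 0.32 to 2.2), which did not pass limma's test of the difference over all genes (adjusted p = 0.805).

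For Ddc the same held between Het and OE livers, all 3 Het APAP values lying below and both OE APAP values above their saline groups. The OE response exceeded the Het response by 1.13 (95% interval 0.54 to 1.73), which did not pass either (adjusted p = 0.102).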

How the results depend on the processing

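Gpt, Gpt2 and Prodh were called in the averaged response under all 26 alternatives, Hpd in 25, Hal in 21 and Ddc in 10. Counts of called members are given with the calls over all genes in brackets. With each library left out in turn there were 3 to 6 members for the averaged response (873 to 2689 genes), 2 to 5 for WT (138 to 964), 4 to 6 for Het (884 to 2624), 0 for OE (0 to 12), 0 to 4 for the differences of response (0 to 458), 0 between labels under saline (1 to 13) and 1 to 8 between labels after APAP (16 to 2069). Where a group of 2 lost a library, the lone one was assumed to vary like the other groups. Only the libraries compared gave 1 member in WT (13 genes, against 611), 1 under saline (295, against 5) and 1 after APAP (129, against 1513). Array weights gave 1 for the differences of response (427, against 2) and 5 under saline (1699, against 5), and pooling the single libraries gave 2 for the differences (263). After APAP there were 4 with lane in place of perfusion (753) and 1 with OE saline 2 and OE APAP 1 both left out (38). The cause was not tested.

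Signs turned for uncalled values. Tat averaged was -0.10 without the perfusion term and -0.036 with single libraries pooled (-0.054 to 0.30 leaving out libraries). Got1 averaged was -0.020 without perfusion and -0.016 with array weights (-0.26 to 0.15). Sds in WT was -0.62 without perfusion, -0.20 with single libraries pooled, -0.22 with array weights, -0.62 from only the groups compared and within non-perfused livers, and -0.48 with OE saline 2 and OE APAP 1 both left out (-0.19 to 0.81). Tat in Het was 0.025 with lane, from only the groups compared and within lane L008, and 0.0086 after quantile normalisation (-0.76 to 0.29). Gpt2 in OE was -0.14 with single libraries pooled. Within lane L004 the OE values were 0.093 for Gpt, -0.52 for Got1 and 0.24 for Hal. Leaving out libraries, OE values ran from -0.83 to 0.18 for Gpt, -0.50 to 0.60 for Got1, -0.68 to 0.25 for Hal, -0.17 to 1.54 for Sds and -0.997 to 0.26 for Hpd. With lane, OE minus WT after APAP was -0.073 for Prodh and -0.67 for Hpd. No paired analysis was possible because the replicate numbers follow deposit order and tie no liver to another. Lane could not replace perfusion for the WT and averaged responses, since WT saline and WT APAP share no lane. Groups of 2 or 3 livers limit every call, and depth is unknown.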

Other observations

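Of 12 hormone receptors and transcription factors 3 fell in the averaged response and 0 rose (13.3% and 9.79% of all genes). The 3 were Cebpa (-0.92 ± 0.16), Foxa2 (-0.59 ± 0.19) and Gcgr, the glucagon receptor (-0.50 ± 0.12). Nr3c1, the glucocorticoid receptor, had a difference of -0.26 ± 0.11 (limma adjusted p = 0.118). Klf15, the gene most like Tat and a regulator of amino acid breakdown, stood at 52.5 to 63.7 FPKM in WT saline and 24.6 to 37.3 in WT APAP livers. Het livers held 29.4 to 53.4 FPKM under saline and 9.44 to 26.6 after APAP. OE livers held 47.7 to 48.3 FPKM under saline and 44.1 to 69.6 after APAP. No Klf15 response to APAP was called. The averaged difference was -0.40 ± 0.21 (limma adjusted p = 0.209). By label it was -0.48 ± 0.33 in WT (0.426), -0.92 ± 0.36 in Het (0.0892) and 0.20 ± 0.36 in OE livers. It was higher in OE than in Het livers after APAP by 1.62 ± 0.33 (adjusted p = 0.0114).

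Of 8 genes that respond to glucocorticoids or glucagon 2 rose and 1 fell in the averaged response (9.79% and 13.3% of all genes). Igfbp1 rose by 3.31 ± 0.89 and Fkbp5 by 0.66 ± 0.15, while Tdo2 fell by 0.73 ± 0.15. Fkbp5 was 4.23 to 4.37 FPKM in WT saline and 11.6 to 12.1 in WT APAP livers, while Het livers held 12.9 to 13.4 under saline and 13.6 to 20.5 after APAP.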
